A study of Mus musculus with 6 samples.

Results

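The mitochondrial ribosomal protein genes of mouse were taken as every row of the deposited count table whose Entrez identifier maps to a protein-coding gene with a symbol of Mrpl or Mrps followed by a digit. Pseudogenes were left out. The rule gave 78 genes of the 27179 identifiers in the table. The rule uses symbols and no measured value, though the set was proposed with earlier results of these data known. Poly(A)-selected RNA had been sequenced from mouse embryonic stem cells on the ES-E14TG2a background. One group carried FLAG-Trim71 with the amino-acid change R783H and the other carried FLAG-Trim71 without it (WT), with 3 libraries each, called A, B and C. All cells were grown on gelatin in medium with LIF, the GSK3 inhibitor CHIR99021 and the MEK inhibitor PD0325901, so the epitope tag and the inhibitors were shared by both groups. The series title links the mutation to hydrocephalus. Whether a letter stands for a clone, a culture or a library preparation is not given in the labels, nor whether each line is a single clone. The p-values therefore measure the spread between these libraries, which may be technical.

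The mitochondrial ribosome translates the few mRNAs of the mitochondrial genome, which encode core subunits of the respiratory chain and of ATP synthase. Its rRNAs are transcribed inside the organelle, but all of its proteins are encoded in the nucleus, made in the cytosol and imported. The small subunit reads the mRNA codons and the large subunit joins the amino acids. Some of the proteins have a counterpart in the bacterial ribosome, and the others were added in the mitochondrial lineage. The gene names follow their history of discovery, so that Mrps30 and Mrps18a encode proteins of the large subunit in spite of the letter s, and Mrps36 encodes a component of the 2-oxoglutarate dehydrogenase complex.

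Total counts were 27807385 to 29079670 per R783H library and 20894277 to 25174121 per WT library. Levels are given as CPM, the count scaled to a common library size with TMM factors, and 3 counts, the floor of detection used here, corresponded to 0.0998 to 0.149 CPM. All 10 markers of embryonic stem cells that were examined had at least 204 CPM in every library, and their summed level was 7390 to 7514 CPM in R783H and 7490 to 7603 CPM in WT. Summed levels were 9.02 to 10.1 CPM against 4.28 to 6.68 CPM for 6 markers of extraembryonic endoderm, 35.0 to 40.3 against 60.5 to 64.4 for 5 mesoderm markers and 11.4 to 11.7 against 10.3 to 11.7 for 5 fibroblast markers. Of the 10 stem cell markers 3 were called lower and 3 higher, so their near-equal sums do not mean that each was unchanged. Among the other markers 2 of endoderm were called higher, 3 of mesoderm lower, and 1 of fibroblasts in each direction. Foxa2, Gata6, Meox1 and Postn averaged under 0.5 CPM in both groups, so the sums came from the other members. The part of the other cell types in the results given here was not tested. In bulk samples, fewer cells of a type and less RNA per cell cannot be told apart. Trim71 mRNA had 151.7, 129 and 150.5 CPM in R783H A, B and C and 131, 131 and 159 CPM in WT, with overlap, a log2 fold change of 0.03 and an adjusted p of 0.743 by edgeR. With offsets for transcript length and GC content it was -0.27 on either set of transcripts, and called (adjusted p 0.00139 and 7.13e-04). Its level says nothing of the labels, because a count per gene does not show which amino acid is encoded.

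Most mRNAs for mitochondrial ribosomal proteins were lower in R783H. Of 77 genes that passed the filter on low counts, 61 (79.2%) were called lower, 1 was called higher and 15 were not called by edgeR's quasi-likelihood test at an adjusted p under 0.05. Over all 14199 tested genes, 30.9% were called lower and 33.5% higher. The median log2 fold change, R783H over WT, was -0.33 over the mitochondrial ribosomal genes and 0.03 over all tested genes, so the median member stood at 79.5% of its WT level. Changes were small for most members. The middle 50% of them lay between -0.49 and -0.20, 10 of the 77 were called lower by at least 1.5-fold, and 2 of these by at least 2-fold. Over all 14199 tested genes 1355 were called lower by at least 1.5-fold, and 450 of these by at least 2-fold. Standard errors of the called decreases ran from 0.05 to 0.11 on the log2 scale, and their adjusted p from 2.10e-07 to 0.0341. The remaining member, Mrpl36, had 3 to 7 counts in a library and was not tested.

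**Figure D1:**
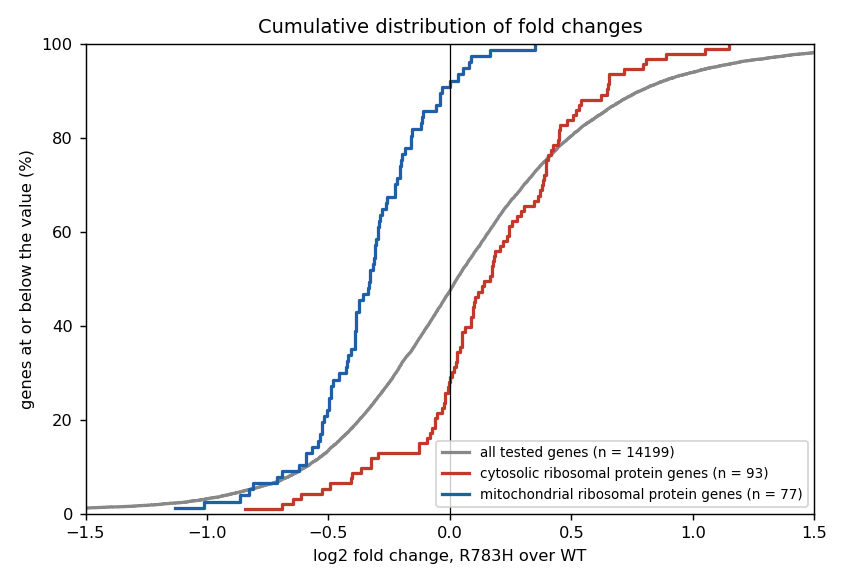
Cumulative distribution of log2 fold changes (x axis, R783H over WT) as the percentage of genes at or below each value (y axis), for all 14199 tested genes, 93 cytosolic ribosomal protein genes and 77 mitochondrial ribosomal protein genes. Both ends of the x axis are cut. The mitochondrial curve crosses 50% to the left of the curve of all genes, with its median at -0.33, whereas the cytosolic curve has its median at 0.16.

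Library by library, the groups stood apart for most members. CPM values did not overlap for 63 of the 77 genes, lower in R783H for 62 of them, where 33.1% of all tested genes were lower without overlap. Separation as such was common in these libraries. Over all 14199 tested genes 4695 were lower without overlap, 4971 were higher without overlap and 4533 overlapped. Together the 77 genes held 4265, 4625 and 4278 CPM in R783H A, B and C and 5697, 5553 and 5405 CPM in WT A, B and C. The 3 R783H sums lay below the 3 WT sums. Relative to the WT mean of each gene, the median log2 level was -0.37, -0.26 and -0.39 in R783H A, B and C, and 0.04, 0.01 and -0.04 in the WT libraries. R783H B thus lay nearest to WT. It was the highest of its group for 64 of the 77 genes. Without R783H B, 66 members were called lower and the median was -0.40. Over all 14311 genes tested in that setting 4913 were called lower.

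**Figure D2:**
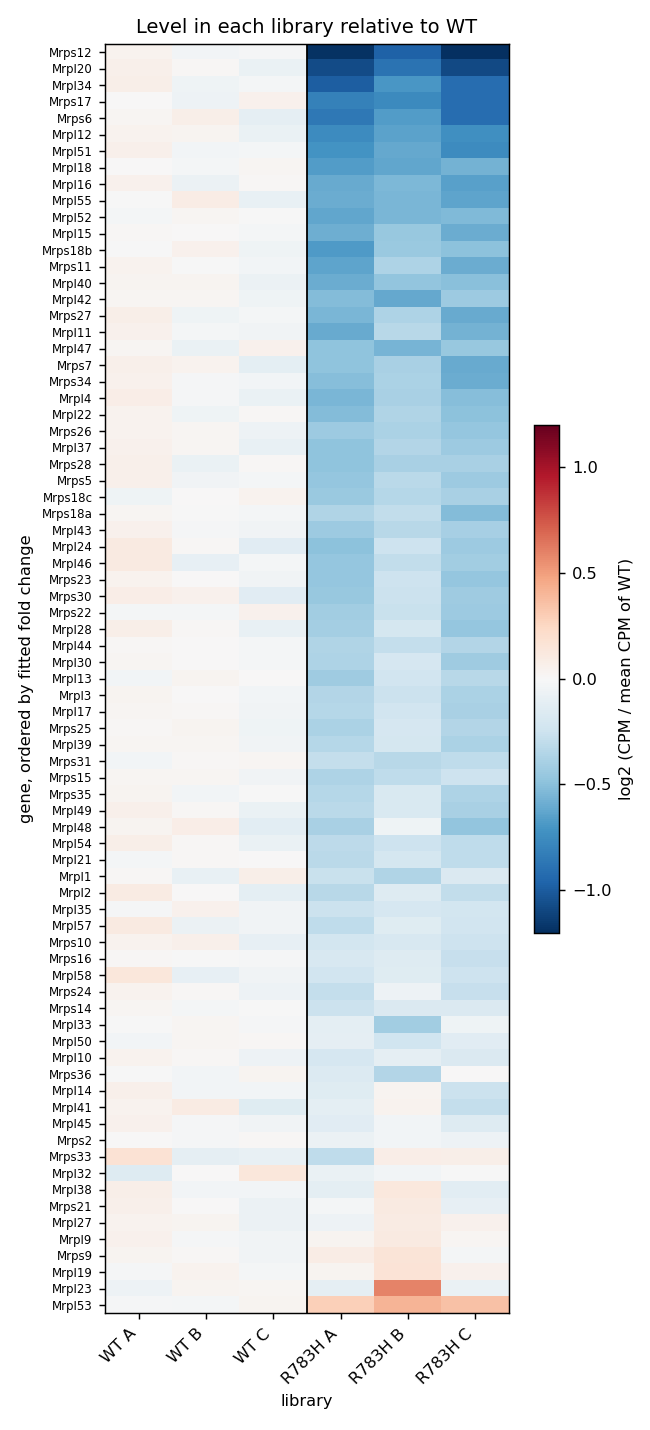
Level of each of the 77 tested members (rows, ordered by fitted fold change) in each library (columns), as log2 of CPM over the mean CPM of WT. Blue fills the R783H columns for most rows, palest in R783H B, while the WT columns stay near white.

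Transcript length moved with fold change in these libraries, and the members are short. Their curated mRNAs had a median of 1280 nt, against 3038 nt over the 12852 tested genes with such a length. Spearman's rho between length and log2 fold change was 0.27 over those genes and 0.08 over the 77 members, which share libraries and are not independent. An offset was fitted that removes the trend of counts with length and GC content of the longest GENCODE transcript in each library. With it 61 members were called lower and 3 higher, 59 of the 61 being the same genes, and the median was -0.31. With that offset 37.5% of all tested genes were called lower, 31.2% higher, and the median of all genes was -0.03. The offset on curated mRNAs, chosen after seeing the data, left 58 members called lower and 6 higher. There 4839 of 12852 tested genes were lower and 4065 higher.

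**Figure D3:**
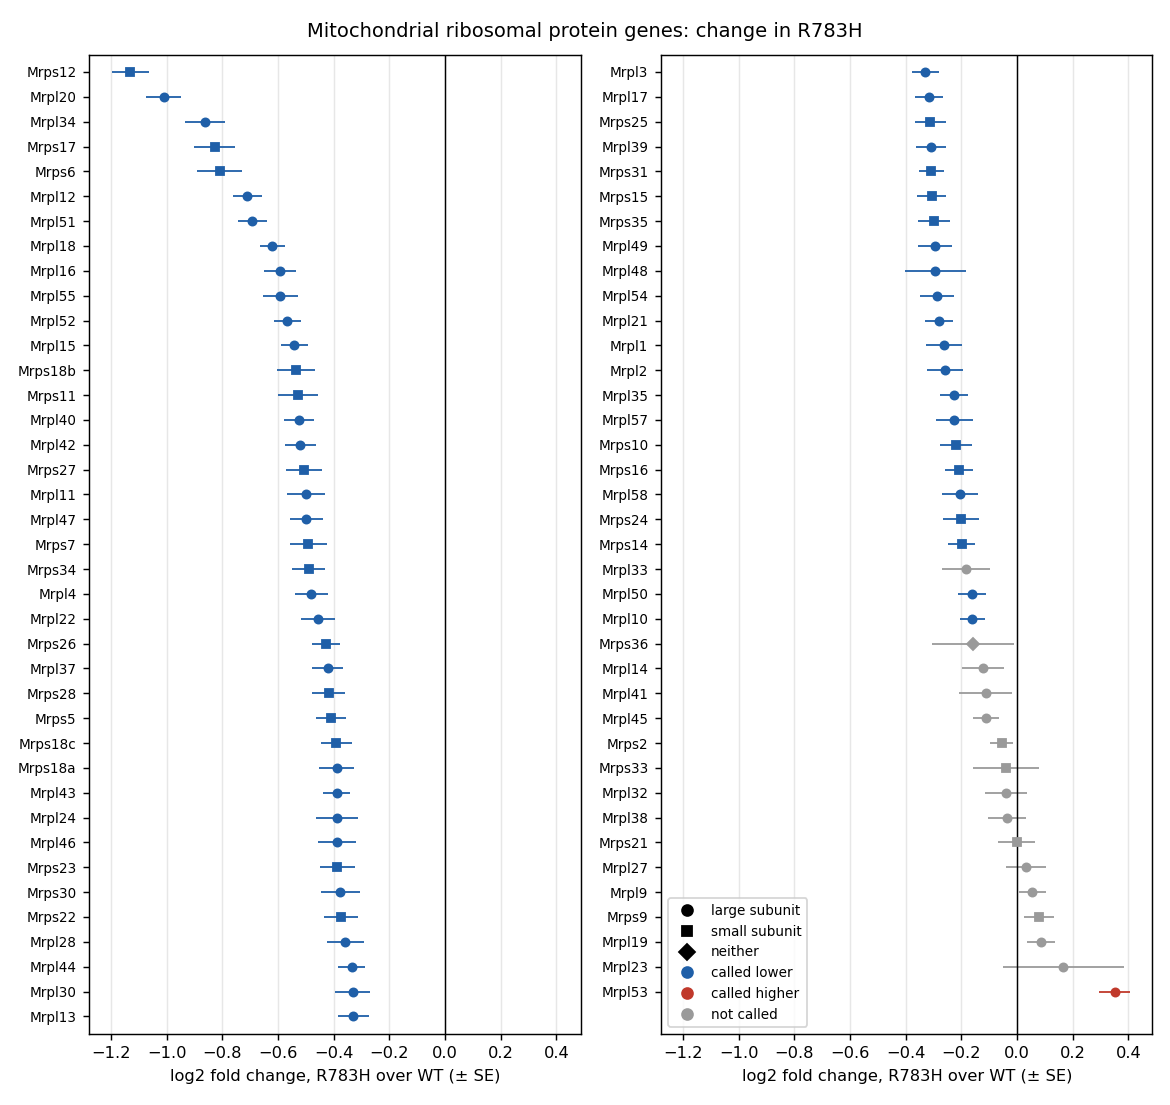
Fitted log2 fold change with its SE (x axis) of each tested member (y axis), in order of change over both panels, with symbols for the subunit and colours for the call. The 61 decreases run from -1.13 (Mrps12) to -0.16 (Mrpl10), 15 genes are grey, and Mrpl53 is the single increase at 0.35.

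Of the 8 members with the largest called decrease and Mrpl53, the single called increase, 5 are introduced with the bases before their start. This was done because the members moved together. Promoters of genes for mitochondrial proteins are also known for binding sites of NRF1, of ETS factors such as GABP, and of YY1. Each line holds the 250 bases before the RefSeq start on the gene's own strand (GRCm38.p6), with matches to any of 4 motifs in capitals. The windows are chr7:28741822-28742071 (minus strand) for Mrps12, chr4:155802628-155802877 for Mrpl20, chr8:71464676-71464925 for Mrpl34, chr11:120484387-120484636 for Mrpl12 and chr6:83108858-83109107 for Mrpl53, the last 4 on the plus strand. They were chosen to show each motif and the single increase, so each holds a match. The windows of Mrps17 and Mrps6, also among the 5 largest decreases, held none.
Mrps12: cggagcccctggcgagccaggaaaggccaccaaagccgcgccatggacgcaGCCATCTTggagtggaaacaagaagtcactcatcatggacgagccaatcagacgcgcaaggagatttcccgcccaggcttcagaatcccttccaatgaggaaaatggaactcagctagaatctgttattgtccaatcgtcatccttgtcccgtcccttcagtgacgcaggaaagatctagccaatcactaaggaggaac
Mrpl20: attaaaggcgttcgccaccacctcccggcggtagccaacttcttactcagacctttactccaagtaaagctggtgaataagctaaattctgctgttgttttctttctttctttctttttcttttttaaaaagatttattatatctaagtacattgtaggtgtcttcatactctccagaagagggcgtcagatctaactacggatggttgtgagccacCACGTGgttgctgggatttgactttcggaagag
Mrpl34: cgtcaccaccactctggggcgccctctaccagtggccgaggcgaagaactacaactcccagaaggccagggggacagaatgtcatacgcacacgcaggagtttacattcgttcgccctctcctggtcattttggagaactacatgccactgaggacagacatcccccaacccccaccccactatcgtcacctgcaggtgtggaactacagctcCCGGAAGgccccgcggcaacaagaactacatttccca
Mrpl12: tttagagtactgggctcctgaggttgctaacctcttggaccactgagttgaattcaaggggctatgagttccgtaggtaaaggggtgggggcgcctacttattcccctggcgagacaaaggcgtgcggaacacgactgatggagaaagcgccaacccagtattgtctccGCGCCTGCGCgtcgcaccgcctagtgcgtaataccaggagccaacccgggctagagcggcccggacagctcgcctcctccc
Mrpl53: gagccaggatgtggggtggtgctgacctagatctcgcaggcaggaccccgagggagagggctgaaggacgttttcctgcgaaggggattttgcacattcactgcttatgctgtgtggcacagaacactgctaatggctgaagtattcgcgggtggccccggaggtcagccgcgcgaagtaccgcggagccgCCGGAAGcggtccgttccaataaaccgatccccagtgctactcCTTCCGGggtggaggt

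The capitals mark a YY1 core in Mrps12 at 199 to 192 bases before the start, an E-box in Mrpl20 at 33 to 28, an ETS core in Mrpl34 at 37 to 31, an NRF1 core in Mrpl12 at 81 to 72 and 2 ETS cores in Mrpl53 at 59 to 53 and at 16 to 10. Both strands were searched for the 10 capitals shown in Mrpl12 with the fifth base free (NRF1), CCGGAAG (ETS), AAGATGGC (YY1) and CACGTG (E-box), and no YY1 match overlapped an ETS match in a member. RefSeq windows of 300 bases, 250 before and 50 after the start, were at hand for 69 members. The YY1 core was in 12 of these (17.4%) and in 4.66% of 10399 windows of tested protein-coding genes. The ETS core was in 24 (34.8%) against 18.1%, the NRF1 core in 13 (18.8%) against 10.6%, and the E-box in 5 (7.25%) against 10.4%. These shares were not adjusted for base composition, and a match is a description of letters, not a binding site. The median log2 fold change was -0.39 for 24 tested members with the ETS core and -0.31 for 44 without it. It was -0.42 for 11 with the YY1 core and -0.32 for 57 without, and -0.22 for 13 with the NRF1 core against -0.38 for 55 without. For the E-box it was -0.41 over 4 tested members and -0.32 over 64 without. Over all 10399 windows the median was -0.08 with the ETS core and 0.04 without it. It was -0.02 and 0.02 for the YY1 core, -0.03 and 0.02 for the NRF1 core, and 0.00187 and 0.02 for the E-box. Among the 8 largest decreases, Mrpl34, Mrpl51 and Mrpl18 each had 1 ETS core in the 250 bases before the start. Mrpl53, the single increase, had 2. A tie between motif and direction was not tested.

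Both subunits showed the decrease. Of 26 tested proteins of the small subunit 22 were called lower, with a median log2 fold change of -0.38, and of 50 of the large subunit 39 were called lower, with a median of -0.33. Of the members with a bacterial counterpart and those without one, 35 of 45 and 26 of 31 were called lower, with medians of -0.33 and -0.34. The 10 decreases of at least 1.5-fold were unevenly shared, 9 of them with a bacterial counterpart and 1 (Mrpl51) without. Differences between these classes were not tested.

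In the small subunit the largest decrease was in Mrps12 (Entrez 24030, chr7:28739641-28741821), whose protein uS12m lies at the decoding site. Its levels were 38.6, 44.7 and 37.0 CPM in the R783H libraries A, B and C and 90.4, 86.1 and 86.9 CPM in WT A, B and C. Every R783H library was at about the same low level, and the groups did not come near each other. Its log2 fold change was -1.13 (SE 0.07), 45.7% of WT, with an adjusted p of 2.10e-07. Mrps17 (Entrez 66258, chr5:129715450-129718712) encodes uS17m, a protein with a bacterial counterpart that binds the small rRNA. Its counts were 331, 322 and 303 in R783H and, in the shallower WT libraries, 391, 453 and 428. The mean was 10.9 ± 0.574 CPM against 19.3 ± 0.797 CPM (SD, n = 3), again without overlap, and it changed by -0.83 (SE 0.07, adjusted p 2.82e-06). Mrps6 (Entrez 121022, chr16:92058336-92112227) encodes bS6m. Its levels were 13.9, 15.9 and 13.4 CPM in R783H and 25.7, 26.5 and 23.5 CPM in WT, and it changed by -0.81 (SE 0.08, adjusted p 6.30e-06). Exons of Mrps6 overlap those of Slc5a3 and of the gene model Gm49711 on the same strand in GENCODE M21, so its counts are uncertain to the extent that reads of these genes were split or merged.

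In the large subunit Mrpl20 (Entrez 66448, chr4:155802878-155808831) came first. Its protein bL20m has a bacterial counterpart that binds the large rRNA early in assembly. Mrpl20 had 39.0, 44.2 and 38.8 CPM in R783H A, B and C and 85.5, 82.6 and 77.8 CPM in WT. All R783H values were near 50% of WT, as the fitted level was 49.6% with a log2 fold change of -1.01 (SE 0.06, adjusted p 2.64e-07). Mrpl34 (Entrez 94065, chr8:71464926-71465753), encoding the small basic protein bL34m, had 51.2, 62.7 and 54.1 CPM against 106.9, 98.6 and 100.3 CPM. It changed by -0.86 (SE 0.07, adjusted p 1.64e-06), and R783H B was again the highest of its group without reaching WT.

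Mrpl12 (Entrez 56282, chr11:120484637-120488754) encodes bL12m, which forms the flexible stalk that recruits translation factors and has also been found bound to the mitochondrial RNA polymerase. Mrpl12 stood at 57.6, 62.0 and 58.2 CPM in R783H and 99.9, 99.4 and 91.6 CPM in WT, and it changed by -0.71 (SE 0.05, adjusted p 8.68e-07). Its exons overlap a lincRNA gene on the opposite strand. The gene for the stalk base, Mrpl10, was the most weakly changed of the called members, with 167.4, 179 and 171 CPM against 198, 194.9 and 185 CPM and a log2 fold change of -0.16 (SE 0.05, adjusted p 0.00952); with library size alone it was not called. The difference between these 2 stalk genes was not tested. Mrpl10 was chosen for this description after its values were seen.

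Mrpl18 (Entrez 67681, chr17:12911345-12917787) encodes uL18m of the central protuberance, where bacterial ribosomes hold the 5S rRNA. Its levels were 76.0, 78.8 and 81.5 CPM in R783H and 121.7, 118.9 and 122.8 CPM in WT, with little spread in either group, and it changed by -0.62 (SE 0.05, adjusted p 7.59e-07). Mrpl51 (Entrez 66493, chr6:125192200-125194392) encodes mL51, a protein without a bacterial counterpart. It had 62.8, 67.4 and 60.9 CPM against 107.3, 100.5 and 101.1 CPM, a log2 fold change of -0.69 (SE 0.05, adjusted p 9.85e-07). Both genes share exon sequence with another gene, Mrpl18 with Tcp1 on the opposite strand and Mrpl51 with a microRNA gene, and Mrpl51 has a stretch of at least 98% identity to another gene. Of all 78 members 38 share sequence in one of these ways, and of the 40 that do not 33 (82.5%) were called lower, with a median of -0.32.

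**Figure D4:**
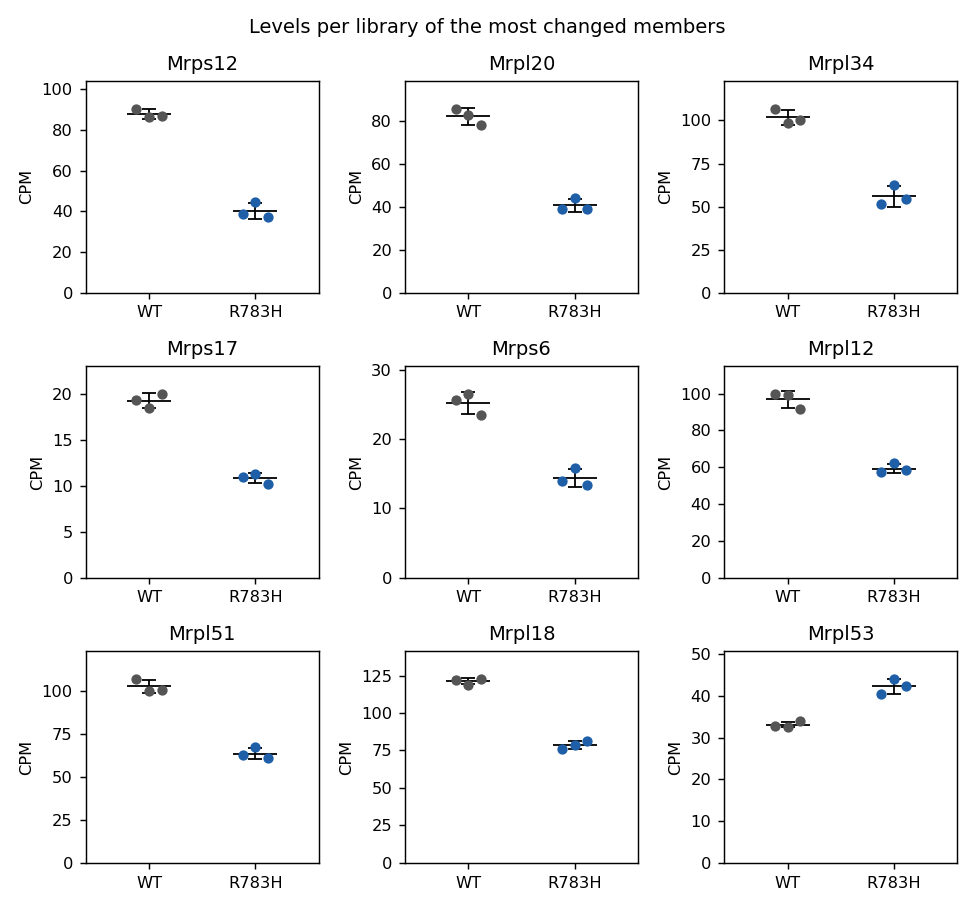
CPM (y axis, from 0) of the 8 called members with the largest decrease and of Mrpl53, the single increase, in WT and R783H. Points are libraries A, B and C from left to right, and the bar with whiskers is the mean ± SD of 3 libraries; the groups do not overlap in any panel.

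Mrpl53 (Entrez 68499, chr6:83109108-83109932), encoding mL53 near the stalk base, was the single called increase. Its 40.3, 44.0 and 42.3 CPM in R783H A, B and C stood against 32.9, 32.6 and 33.9 CPM in WT. All R783H values were above all WT values, and the log2 fold change was 0.35 (SE 0.06, adjusted p 2.16e-04). Its exons overlap a protein-coding model, Gm42688, on the same strand and an antisense gene, and the part of these in the value was not tested.

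The 3 Mrps18 genes encode related proteins that occupy different places, mS40 (Mrps18b) and bS18m (Mrps18c) in the small subunit and mL66 (Mrps18a) in the large subunit. Mrps18b had 26.6, 31.4 and 30.2 CPM in R783H against 42.5, 44.1 and 41.2 CPM, and it changed by -0.54 (SE 0.07, adjusted p 4.18e-05). Mrps18c fell from 40.1 ± 1.29 to 30.6 ± 1.09 CPM (SD, n = 3), by 0.39 on the log2 scale (SE 0.06, adjusted p 9.82e-05). Mrps18a fell from 51.1 ± 0.808 to 39.0 ± 3.01 CPM, also by 0.39 (SE 0.06, adjusted p 2.10e-04). The groups did not overlap for any of the 3 paralogues. Mrps30, whose protein mL65 is the other member named for the small subunit but found in the large one, had 90.3, 103 and 91.7 CPM in R783H against 130.1, 128 and 111.9 CPM in WT. It changed by -0.38 (SE 0.07, adjusted p 5.81e-04). Mrps36, which belongs to no ribosomal subunit, had 75, 62 and 83 counts in R783H and 56, 67 and 61 in WT, with overlapping CPM and an adjusted p of 0.365. Its 95% interval, from the t distribution with the residual degrees of freedom of the edgeR fit, ran from -0.48 to 0.17 on the log2 scale, which includes the median of the ribosomal members.

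The 15 other tested members did not pass the test, and their fitted log2 fold changes lay between -0.18 (Mrpl33) and 0.17 (Mrpl23). Some were measured well enough to set a narrow limit. Mrps2, encoding uS2m, had 117.4, 120.4 and 117.7 CPM in R783H and 123, 122 and 124 CPM in WT, and its interval ran from -0.15 to 0.03. Mrps21, encoding bS21m, had 32.2, 35.4 and 30.7 CPM against 34.3, 32.9 and 31.3 CPM, with an interval from -0.15 to 0.15. Mrpl9 had 78.9, 83.0 and 78.3 CPM against 80.0, 76.4 and 74.8 CPM, with an interval from -0.05 to 0.16, and Mrps9 and Mrpl19 likewise had intervals whose lower bounds were -0.04 and -0.02. The intervals of these 5 genes exclude the median change of the members. Mrpl45, whose protein anchors the ribosome near the inner membrane and which was the member with the most reads, had 278.5, 299 and 274.9 CPM against 318, 304 and 299 CPM, an interval from -0.21 to -0.01 and an adjusted p of 0.0579. These genes were chosen after their values were seen. Scaling by library size alone, without TMM factors, called Mrpl9, Mrpl19 and Mrps9 higher, as it did 5673 of all 14199 tested genes. Mrpl9 was called higher with the length and GC offset, and Mrpl9, Mrps9 and Mrps21 with the offset on curated mRNAs. Mrps2 was called lower without R783H B. DESeq2 called Mrpl33 and Mrpl45 lower.

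Levels can be compared between members only per length of transcript, as RPKM (CPM divided by length in kilobases) on the longest GENCODE transcript matched to a curated RefSeq mRNA. By this measure the median member had 44.6 RPKM in WT and 34.5 RPKM in R783H, against 8.43 and 9.02 RPKM over all tested genes with a length. The members lay close together. The 90th percentile was 7.30 times the 10th in WT and 6.18 times in R783H, against 170.3 and 136.6 times over all tested genes. The highest members over all libraries were Mrpl42 with 157.7 ± 4.52 RPKM in WT and 109.9 ± 7.03 in R783H (SD, n = 3), Mrpl34 with 167.9 ± 7.23 and 92.3 ± 9.87, and Mrpl52 with 149 ± 2.18 and 100.9 ± 3.38. All 3 encode large-subunit proteins and were called lower. Ranks of level per length depend on the length chosen. For Mrpl42 it was 666 nt, where its longest transcript has 3277 nt. Mrpl34 was the highest of all members in WT, and in R783H it came after 5 others, led by Mrpl45 at 116.9 ± 5.41, Mrpl2 at 111.8 ± 7.38 and Mrpl42, which did not differ beyond their spread. Spearman's rho between the WT and R783H levels of the 78 members was 0.965, a description of genes measured in the same libraries.

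The lowest levels per length belonged to Mrpl36, Mrpl23, Mrpl48 and Mrps36. The place of Mrpl48 rests on a length of 4285 nt, where the mean of its transcripts is 1418 nt. Mrpl36, encoding bL36m, had 3, 4 and 4 counts in the R783H libraries and 3, 7 and 6 in WT, which is at or little above the floor of 3 counts per library, so no fold is given. Its exons overlap those of Ndufs6 on the opposite strand. Ndufs6, a subunit of respiratory complex I, changed by -0.33 (SE 0.05, adjusted p 2.16e-04). Mrpl23, encoding uL23m at the exit of the peptide tunnel, had 49, 75 and 49 counts in R783H and 34, 44 and 38 in WT, with an adjusted p of 0.526; its log2 fold change was 0.17, and -0.12 without R783H B. Mrpl48, encoding mL48, had 12.6, 15.9 and 11.8 CPM in R783H and 16.8, 17.4 and 15.1 CPM in WT, and it was the only called member whose groups overlapped (adjusted p 0.0341). Leaving out R783H A, R783H C, WT A or WT B ended the call of Mrpl48. Mrpl23, Mrpl48 and Mrps36 each have an annotated pseudogene with a stretch of at least 98% identity, and the part of lost or shared reads in these low levels was not tested.

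The same ribosome holds 5 further proteins whose genes have other names, and 4 of these were called lower, with a list median of -0.24. Gadd45gip1, encoding mL64, had 61.1, 73.0 and 67.4 CPM in R783H and 128.7, 114.7 and 118.4 CPM in WT, and it changed by -0.84 (SE 0.07, adjusted p 1.43e-06). Ptcd3, encoding mS39 at the mRNA entry, had 146.8, 148.3 and 148 CPM against 183.7, 184.7 and 186.2 CPM (-0.32, SE 0.04, adjusted p 2.72e-05). Both were without overlap, as were Aurkaip1 (mS38, -0.24, SE 0.05, adjusted p 0.00249) and Chchd1 (mS37, -0.24, SE 0.08, adjusted p 0.0186). Dap3, encoding the GTP-binding protein mS29, had 137, 151.5 and 130.8 CPM against 147.8, 139 and 139 CPM, with overlap, a log2 fold change of -0.02 and an adjusted p of 0.752. Dap3 had a value of 0.06 with library size alone and of -0.15, then called, with the length and GC offset. Chchd1 was not called under either of these settings, nor without R783H A, R783H C or WT A.

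Genes that build and serve the mitochondrial ribosome are read against the 30.9% called lower and 33.5% called higher over all tested genes. Of 27 genes for assembly and rRNA modification 16 were called lower and 11 were not called, with a median of -0.18. With library size alone 10 were lower, where 3603 of 14199 tested genes were. The largest change of the list was in Mrm3, an rRNA methyltransferase, with 12.5, 13.5 and 13.3 CPM in R783H against 18.2, 20.6 and 21.2 CPM in WT (-0.62, SE 0.08, adjusted p 3.80e-05). Of 17 translation factors and related genes 6 (35.3%) were lower, a share near that of all tested genes, and 3 higher, with a median of -0.09. Tufm, the elongation factor that brings aminoacyl-tRNA to the ribosome, fell from 51.4 ± 3.57 to 36.6 ± 3.18 CPM (SD, n = 3), or by 0.49 on the log2 scale (SE 0.07, adjusted p 1.37e-04). Rmnd1, an inner-membrane protein needed for mitochondrial translation, rose from 9.82 ± 0.751 to 13.3 ± 0.772 CPM (0.44, SE 0.09, adjusted p 9.26e-04).

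Of 12 genes for mitochondrial transcription and maintenance of the mitochondrial genome 6 were called lower and 6 were not called, with a median of -0.18. With library size alone 3 were lower, where 3603 of 14199 tested genes were. Twnk, the replicative DNA helicase, fell from 79.8 ± 0.734 to 49.2 ± 0.860 CPM (SD, n = 3; -0.70, SE 0.05, adjusted p 3.39e-07), and its exons overlap those of Mrpl43 on the opposite strand. Among 9 tested regulators of mitochondrial biogenesis 6 were called lower, with a median of -0.24. Myc, a transcription factor that promotes growth and ribosome production, stood at 19.3, 21.2 and 19.3 CPM in R783H and 66.2, 67.2 and 62.8 CPM in WT (-1.71, SE 0.06, adjusted p 1.19e-08). These shares stand beside 30.9% called lower over all tested genes, and no list was tested as a set.

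**Figure D5:**
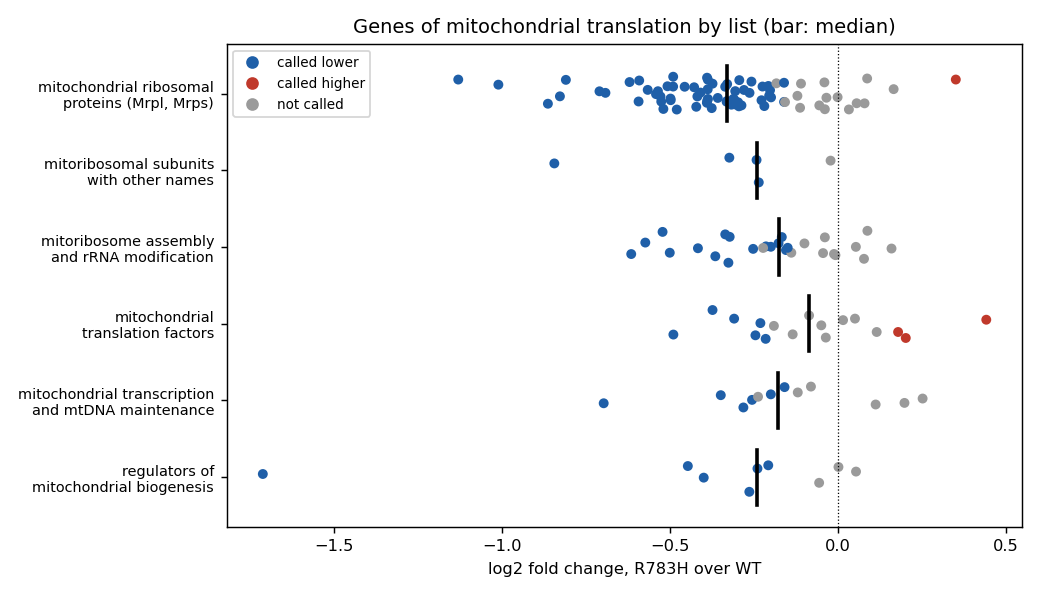
Log2 fold change (x axis, R783H over WT) of each tested gene in 6 lists of mitochondrial translation (rows), with colours for the call and a bar at each list's median. The median is -0.33 for the mitochondrial ribosomal proteins, -0.24, -0.18, -0.09 and -0.18 for the lists below it and -0.24 for the regulators, where Myc lies furthest left.

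Cytosolic ribosomal protein genes, the most similar group in function, were more often called higher than lower. Of 93 genes with Rpl or Rps symbols and a few with other names, 44 (47.3%) were called higher and 12 (12.9%) lower in R783H, against 33.5% and 30.9% over all tested genes, with a median log2 fold change of 0.16. The symbol match let in Rps19bp1, an Rps19-binding protein, and 2 genes with pseudogene-like symbols. Without these, an alternative chosen after seeing the data, 43 of 90 were higher and 11 lower. Genes with paralogue-like symbols stayed in the 90. Examples are Rpl7l1 (-0.69) and Rps27l (-0.53), called lower, and Rpl39l (0.89) and Rpl32l (0.65), called higher. Without R783H B 21 of the 93 were lower, where 4913 of 14311 tested genes were, and the median of the 93 was 0.09. With the length and GC offset 67 were higher, where 31.2% of all genes were. Their curated mRNAs are also short, with a median of 833 nt against 1280 nt in the mitochondrial set. Their levels were very uneven, with Rpl39 at 0.839 and Rps13 at 3.59 CPM in R783H beside Rpl8 at 2461 CPM. Near-identical copies were not searched for in this set, and the part of lost or shared reads in its calls was not tested. The medians of the 2 ribosomes kept opposite signs under each alternative setting that was run. The difference between the 2 sets was not tested, since members of a set are not replicates of a condition.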

How the data were processed

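The authors deposited a table of raw read counts per gene with Entrez Gene identifiers, a column for each of 6 libraries, per the file header. HISAT2, SAMtools, CASAVA 1.4 and the build mm10 are named in the submitters' processing notes. The counting tool, its annotation and its use of strand are not given in the sources used here. Columns were matched to samples by title, with 0 columns left over.

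Symbols and positions came from RefSeq (GRCm38.p6), and lengths, GC content and exon overlaps (bedtools 2.31.1) from GENCODE M21 on GRCm38, the same build as mm10. Copies were searched with BLAST 2.17.0 at 98% identity over 100 nt. Counts were fitted with R 4.3.3 and edgeR 4.0.16: filterByExpr with a minimum count of 10 and a total of 15, TMM factors, group as single term, the quasi-likelihood test and Benjamini-Hochberg adjustment over 14199 genes, called under 0.05. SE is the log2 fold change over the square root of F. Steps were tested on simulated data, where 90 of 100 genes changed 2-fold and 85 of 100 changed 1.5-fold were called. The other genes were unchanged there, whereas 9152 were called in these data, so the scaling in such a case was not tested. The members and lists were chosen with earlier results of these data known. Genes named are Trim71, the 8 largest called changes per direction, the 3 highest and lowest levels per length, the Mrps18 genes, Mrps30, Mrps36, untested members, the subunits with other names and the largest called change per list and direction. Any other gene was chosen after its values were seen. Of 18 translation factors 17 matched a row. Alternatives used DESeq2 1.42.0 and limma 3.58.1 too. The length for RPKM was chosen after seeing that the longest transcripts of several members far exceed their curated mRNAs. Counting error is only part of the spread between libraries. The result of 1 further marker list is not reported here.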

Additional observations from a re-analysis of the deposited data

How the results depend on the processing

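The decrease kept its direction under all settings run, with 54 (library size alone) to 66 (without R783H B) members called lower, and 52 members were lower in every one. Mrpl10, Mrpl2, Mrpl48, Mrpl50, Mrpl54, Mrpl57, Mrpl58, Mrps10 and Mrps24 were lost in at least 1. Without R783H B 4913 of 14311 tested genes were called lower. The 40 members that share no sequence gave 33 decreases. The cause of the shifts was not tested. With library size alone, the median of all genes moved from 0.03 to 0.11. There 5673 of 14199 tested genes were called higher and 3603 lower. Of the members 4 were higher, 3 of the large and 1 of the small subunit, 3 with a bacterial counterpart. The medians were then -0.25 for all members and those with a counterpart, and -0.30 for the small subunit. The lists gave 10 lower, 1 higher and a median of -0.10 (assembly), -0.00505 (translation factors), 3 called, all lower, and -0.10 (transcription), and -0.16 (regulators). The length and GC offset gave 3 higher members, all large-subunit, 1 with and 2 without a counterpart, a small-subunit median of -0.33, 67 cytosolic increases, 2 increases in assembly, and medians of -0.16 (translation factors) and -0.33 (regulators). On RefSeq-matched transcripts, chosen after seeing the data, it gave 6 higher members, 4 large and 2 small, 4 with and 2 without a counterpart, a small-subunit median of -0.29, a cytosolic median of 0.27, 3, 1 and 1 increases in assembly, transcription and regulators, and a regulators' median of -0.35. Leaving out single libraries gave medians of -0.40 to -0.32 (all members, and with a counterpart), -0.44 to -0.36 (small subunit), -0.44 to -0.33 (no counterpart), -0.35 to -0.21 (other names) and -0.14 to -0.0917 (translation factors), with 11 to 21 cytosolic decreases, a cytosolic median of 0.09 to 0.18 and 0 to 1 increases in transcription. Trim71 changed sign to -0.27 with both offsets, and was then called, and ran from -0.0219 to 0.13 without single libraries. Mrpl23 ran from -0.12 to 0.27. Dap3 was 0.0588 with library size alone and ran from -0.11 to 0.0135. Levels per length on the longest transcript or the mean length had a rho of 0.832 and 0.827 with those reported. The replicate block gave 62 lower, 1 higher and 9260 called genes in all. Deviations of same-letter libraries correlated at -0.07, 0.01 and 0.09, and libraries did not each correlate best with their own letter. With 3 libraries per group these values show no pairing by letter but cannot exclude it. Depth limits Mrpl36, Mrpl23 and Mrps36.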

Other observations

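Many members start head to head with another gene. In GENCODE M21, 32 members have a protein-coding gene on the opposite strand that starts within 1000 bp, and Mrpl46 and Mrps11 are such a pair with each other, both called lower. Among the other pairs, 28 had both genes tested. Of these 28 members 24 were called lower, with a median log2 fold change of -0.33, and of their 28 neighbours 13 were lower, 5 higher and 10 not called, with a median of -0.12, where 30.9% of all tested genes were lower and 33.5% higher. Both genes were lower in 11 pairs, and in 3 pairs the member was lower and the neighbour higher. The genes of this paragraph were chosen after their values were seen.

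Mrps18b and Ppp1r10, a regulatory subunit of protein phosphatase 1, start 45 bp apart, and Ppp1r10 fell from 160.4 ± 3.06 to 113 ± 4.52 CPM (SD, n = 3), or by 0.51 on the log2 scale (SE 0.05, adjusted p 2.92e-06), close to the -0.54 of Mrps18b. Mrps12 and Sars2, the mitochondrial seryl-tRNA synthetase, start 172 bp apart, and Sars2 changed by -0.16 (SE 0.06, adjusted p 0.0294) against -1.13 for Mrps12. Mrpl44 and Wdfy1, which overlap at their starts, moved in opposite directions. Mrpl44 changed by -0.34 (SE 0.05), and Wdfy1 rose from 66.4 ± 2.93 to 103.5 ± 3.95 CPM (0.64, SE 0.05, adjusted p 1.43e-06). Without knowledge of strand in the counting, overlapping reads of such pairs cannot be told apart.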
